A study of Mus musculus with 12 samples.

Results

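The genes described here are 47 genes of the Wnt pathway on a mouse whole-genome array, taken by name from the array files: the Wnt ligands, the Frizzled receptors (Fzd), the co-receptors Lrp5 and Lrp6, the inhibitors of the Sfrp family and Wif1, the Dickkopf genes (Dkk), Axin1, Axin2, Apc and Ctnnb1, and the transcription factor genes Lef1, Tcf7 and Tcf7l2. They are 47 of 27673 genes with a name or identifier on the array and were read by 72 of its 41174 gene probes, with each gene represented by its brightest probe. They comprise 19 Wnt ligands, 10 Frizzled receptors, 2 co-receptors, 5 Wnt-binding inhibitors, 4 Dickkopf genes, 4 genes of β-catenin and its destruction complex, and 3 Tcf/Lef factors. Of the 47, 39 were bright enough to be tested. The other 8 were Dkk1, Dkk4, Wnt2b, Wnt3, Wnt3a, Wnt8a, Wnt8b and Wnt16, whose probes were well above background on at most 2 of 12 arrays in tumor RNA and at most 2 of 12 in pool RNA.

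Expression was measured in 8 mammary tumors labelled ShcA-null (NIC SHC null) against a pool of NIC mammary tumors, which carry the same oncogene. NIC tumors are driven by an activated Neu (ErbB2) receptor expressed together with Cre recombinase from the mammary MMTV promoter (the series text writes MMPV-NIC), so recombination is confined to cells in which that promoter is active and the other cells of a tumor keep Shc1, which encodes the adaptor protein ShcA. Each of 12 two-colour arrays carried the RNA of 1 tumor and of the pool: a first array for each of tumors 1 to 8, with the tumor in Cy5, and swapped arrays labelled tumors 1 to 4, with the tumor in Cy3. The labels give no age, strain, deleted part of Shc1 or number of animals in the pool, and do not say that the tumors came from separate animals, so a p-value speaks only of the spread among these samples, and the pool counts as 1 control sample whose own spread is left out.

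Wnt ligands are secreted lipid-modified proteins that bind a Frizzled receptor together with Lrp5 or Lrp6. Without them, a complex that holds Axin and Apc marks β-catenin (encoded by Ctnnb1) for destruction, and with them β-catenin accumulates and acts with Tcf and Lef factors on target genes such as Axin2. Some ligands, among them Wnt5a and Wnt11, are better known for signalling that does not use β-catenin. In the mammary gland Wnt4 is a mediator of progesterone-driven branching, Wnt1 was found as a gene activated by mouse mammary tumor virus insertion, and Lef1 and Lrp6 are needed for normal mammary development.

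Values are log2 ratios of tumor over pool, on which 1 is a 2-fold difference. Of 4 swapped arrays, only the one labelled tumor 1 correlated best with the first array of its own label (r = 0.445 over 24874 probes). The swapped array labelled tumor 2 correlated best with the first array of tumor 3 (r = 0.819, against 0.137 for tumor 2), that labelled tumor 3 with tumor 4 (0.399, against 0.127) and that labelled tumor 4 with tumor 8 (0.697, against 0.293). A second set of arrays stood apart in another way: on the first arrays of tumors 6 and 7 the 2 brightest probes of a gene lay past 2-fold in opposite directions for 3.6% and 1.37% of genes with 2 such probes, against 0.015% to 0.312% on the other 10 arrays. The Shc1 probe read -2.05 on the first array of tumor 3 and -2.22 on the swapped array labelled tumor 2, and between -0.03 and 0.74 on the other 10 arrays; it checks the labels only if it lies in the deleted part. Each result is therefore given by array and from up to 4 fits. The first takes the 8 tumors with swapped arrays averaged by label (the 8-tumor fit). The second takes all 12 arrays with a term for dye and swapped arrays matched to the tumor they resemble most (the dye-term fit). The others are both of these without tumors 6 and 7. Where a swapped array holds RNA of another tumor than its label says, that tumor enters 2 of the 8 values of the 8-tumor fit. The n, SD and adjusted p of that fit would then not rest on 8 separate tumors.

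Over the 8 tumors, 4 members were called higher than the pool, namely Tcf7, Wnt11, Fzd10 and Sfrp1, and 2 lower, namely Lrp5 and Apc (limma, Benjamini-Hochberg adjusted p under 0.05 over 20422 genes). Fzd10 passed the brightness filter only through tumor RNA, the side where it was high. Of all genes tested 6.59% were called higher and 10.6% lower, so that 38.4% of called genes were higher (71% with median centring in place of loess, which moved the median of all genes to 0.16, and 48.3% in the deposited table); hence 4 and 2 of 39 members lie near what the whole array gave. In the dye-term fit, only Tcf7 was called higher and only Lrp5 lower among the members, beside 3.51% and 4.49% of all genes. The median log2 ratio was 0.13 over the 39 members and -0.02 over all genes in the 8-tumor fit, and 0.08 and -0.01 in the dye-term fit. Without tumors 6 and 7, 7 members were called higher (Ctnnb1, Fzd7, Tcf7, Wif1, Wnt4, Wnt7b and Wnt11) and 4 lower (Apc, Fzd3, Fzd4 and Lrp5), beside 9.79% and 15% of all genes; the dye-term fit without those tumors called none of the 39 (11 had an unadjusted p under 0.05), beside 2.65% and 2.72% of all genes. The SD between tumors had a median of 0.67 over the members and 0.46 over all genes.

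**Figure D1:**
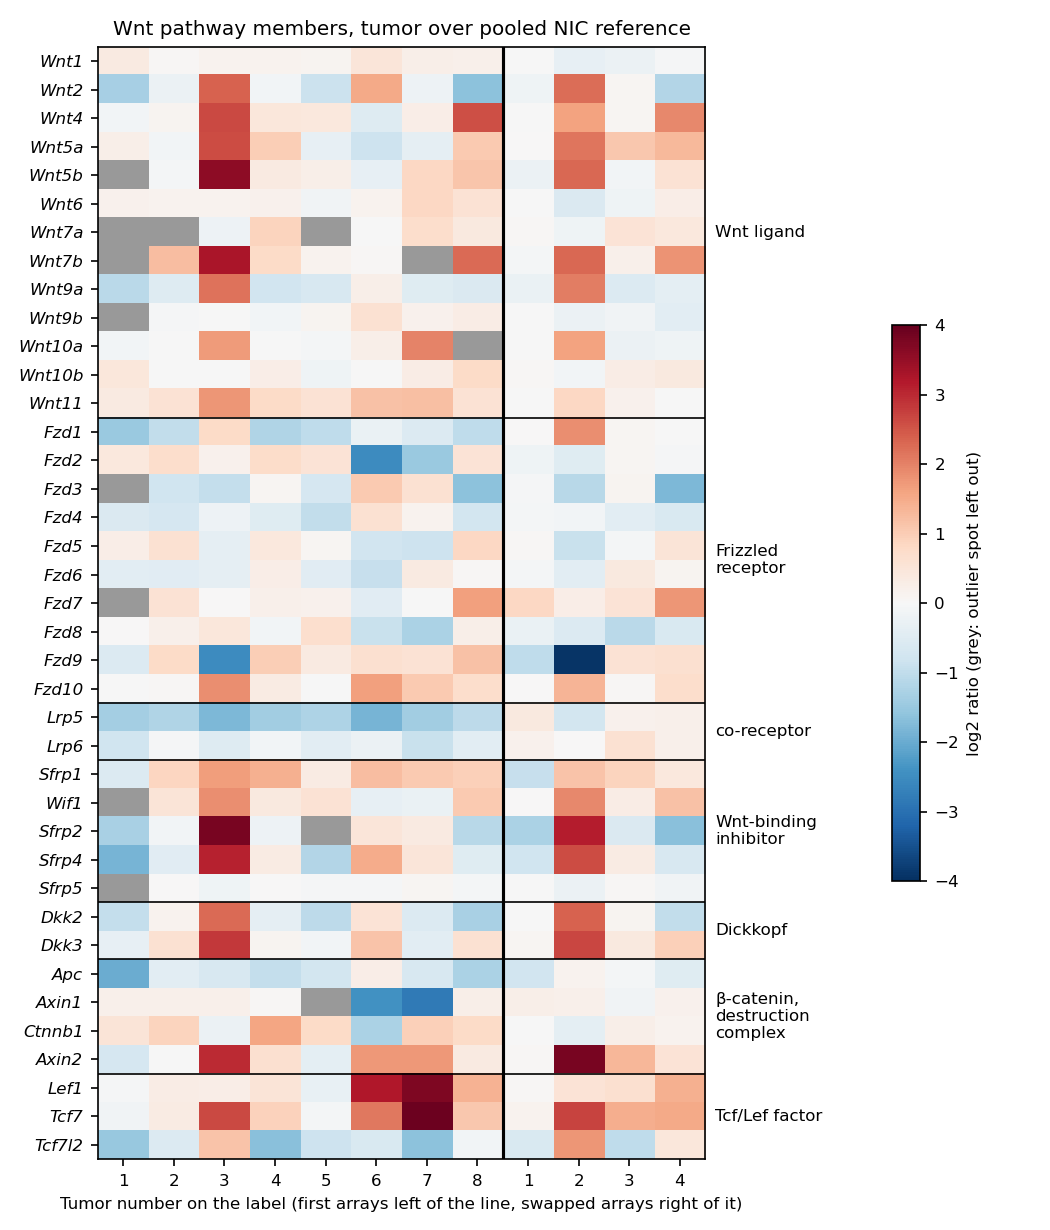
Log2 ratio of tumor over pool for the 39 tested members (rows, by role) on the 8 first and the 4 swapped arrays (columns, by the tumor number on the label), with red above and blue below the pool and grey where an outlier spot was left out. The first array of tumor 3 and the swapped array labelled tumor 2 share their strong colours, from Sfrp2 at 3.80 and 3.14 to Fzd9 at -2.51 and -3.93.

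Tumor 3 had the most members at least 2-fold above the pool of the 8 first arrays. On its first array 18 of 39 members lay at least 2-fold above the pool, where 13.6% of all tested genes did, and on the swapped array labelled tumor 2 it was again 18 of 39, beside 14.5% of all genes. Of these, 17 were the same members on both arrays: the ligands Wnt2, Wnt4, Wnt5a, Wnt5b, Wnt7b, Wnt9a and Wnt10a, the inhibitors Sfrp1, Sfrp2, Sfrp4, Wif1, Dkk2 and Dkk3, the receptor Fzd10, and Axin2, Tcf7 and Tcf7l2. Both arrays were past 2-fold higher for 9.95% of all genes. On the first arrays of the other 7 tumors between 0 and 10 members lay at least 2-fold above the pool, beside 3.96% to 13.4% of all genes. The 10 were in tumor 6, which also had the 13.4%. At least 2-fold below it lay 2 of 39 members on the first array of tumor 3, beside 8.08% of all genes. In tumor 1 it was 8 of 31 members with a value, beside 13.2%, and in tumor 8 it was 7 of 38, beside 7.06%. The remaining tumors had 1 to 5 such members, beside 3.85% to 21.5% of all genes. Over the 38 members measured on all 3 arrays, the swapped array labelled tumor 2 differed from the first array of tumor 3 by a median of 0.48 and from that of tumor 2 by 1.23.

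**Figure D2:**
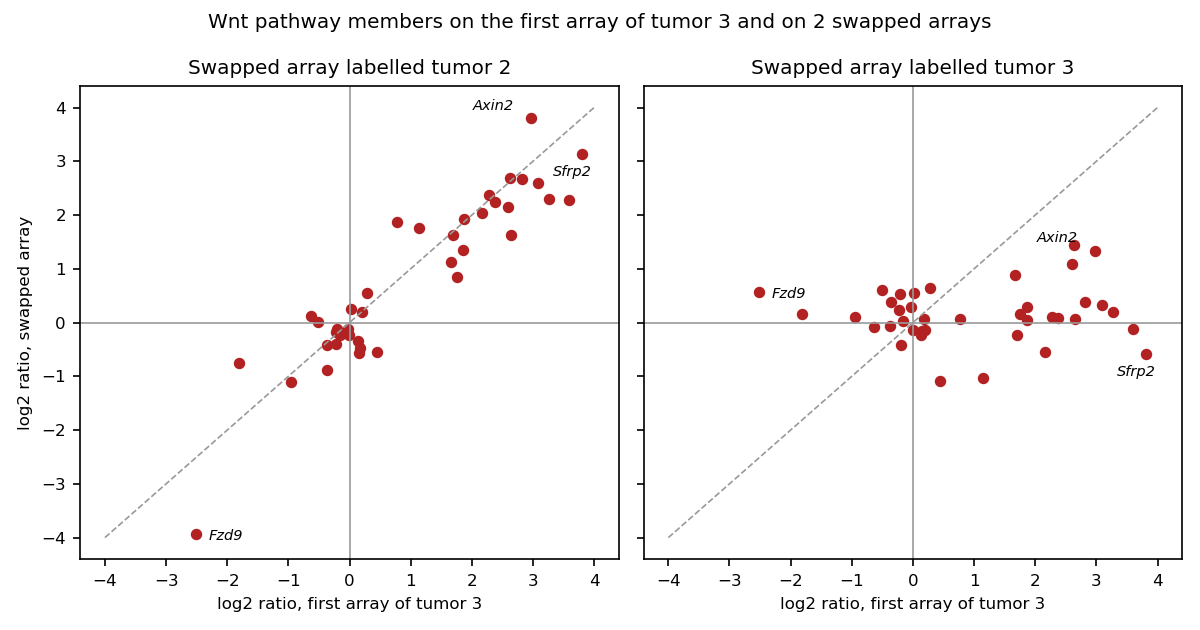
Log2 ratios of the 39 tested members on the first array of tumor 3 (horizontal) against the swapped arrays labelled tumor 2 (left) and tumor 3 (right), with the dashed line marking equal values. The points follow the line on the left, with Sfrp2 at 3.80 and 3.14, and not on the right, where Sfrp2 was -0.58.

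Each list of cell type markers had a median above the pool on the arrays with these values. On the first array of tumor 3 and the swapped array labelled tumor 2, the median log2 ratio of 10 fibroblast markers was 3.51 and 2.81, and that of 9 basal and myoepithelial markers 2.64 and 1.68; on the other 10 arrays they lay between -0.93 and 0.96 and between -0.03 and 1.03. On the same arrays, in that order, the medians were 0.992 and 0.855 for luminal and 0.915 and 0.957 for adipocyte markers. They were 1.01 and 0.915 for endothelial and 1.36 and 0.912 for T cell markers. The first array of tumor 7 had higher luminal, adipocyte and T cell medians, at 1.21, 1.68 and 3.17. All 10 fibroblast and 9 basal markers could be tested, and none of the fibroblast markers was called over the 8 tumors (limma, 1 had an unadjusted p under 0.05). The summed level of the fibroblast markers ran over the tumors from 135000 to 815000 intensity units, against 84500 to 443000 in the pool. Their part in the members' values was not tested, and in bulk tumors more cells of a type and more RNA per cell cannot be told apart.

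Among the 19 ligands, 13 could be tested and 1 was called, Wnt11, a ligand known for signalling outside the β-catenin branch. Wnt11 was 0.36, 0.57, 1.76, 0.78, 0.56, 1.18, 1.21 and 0.58 on first arrays, tumors 1 to 8 in order, and -0.02, 0.84, 0.16 and -0.02 on swapped arrays in the order of their labels; the same order holds for each gene after it. Every first array was above the pool, while 3 of 4 swapped arrays lay close to it. Its mean was 0.72 ± 0.37 (SD, n = 8; limma adjusted p = 0.008), a 1.64-fold difference, and it was above 0 in 8 of 8 tumors. In the dye-term fit it was 0.56 ± 0.17 (SE; limma adjusted p = 0.0543), with a dye coefficient of 0.31, where it was called when tumor 1 was left out and not when another was. In the 8-tumor fit it was called whichever tumor was left out.

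The Wnt11 probe and the stretch before the Wnt11 start are shown because Wnt11 was the one ligand called and its promoter holds a Tcf/Lef motif. The probe (A_51_P503131, mm7 chr7:94885377-94885437, plus strand) begins with these 30 of its 60 bases:
Wnt11 A_51_P503131: gaaactgataggattaaaaataacctggca
RefSeq promoters (GRCm38.p6, from 250 bases before to 50 after a start) were found for 31 of the 47 members, at 40 starts. The letters CTTTGAA or CTTTGAT or CTTTGTA or CTTTGTT were searched on both strands, and a start counts once however many it holds, and 7 of the 40 starts (17.5%) held one, beside 16.9% of all 32851 starts, a share close to that of the members. The 250 bases before 1 of the 2 Wnt11 starts (chr7:98834862-98835111, plus strand) and before the Fzd7 start (chr1:59481897-59482146, plus strand) are given with the match in capitals, 51 and 130 bases before the start:
Wnt11 promoter: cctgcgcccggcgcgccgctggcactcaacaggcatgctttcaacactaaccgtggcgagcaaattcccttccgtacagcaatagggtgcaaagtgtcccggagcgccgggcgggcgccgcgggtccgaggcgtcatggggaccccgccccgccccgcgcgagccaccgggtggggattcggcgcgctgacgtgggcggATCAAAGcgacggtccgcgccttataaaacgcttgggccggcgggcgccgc
Fzd7 promoter: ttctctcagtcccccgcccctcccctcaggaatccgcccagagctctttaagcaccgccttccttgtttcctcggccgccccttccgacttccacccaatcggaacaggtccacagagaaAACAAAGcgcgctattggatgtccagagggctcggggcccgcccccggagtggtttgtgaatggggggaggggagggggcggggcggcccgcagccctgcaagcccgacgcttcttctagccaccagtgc
A match is a run of letters and does not show that a factor binds there.

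The other 12 tested ligands were not called over the 8 tumors, and in several of them 1 or 2 tumors held most of the difference. Wnt7b, a ligand known from lung and kidney development, was 1.23, 3.27, 0.76, 0.15, 0.04 and 2.25 on first arrays (tumors 1 and 7 had no value), and -0.07, 2.30, 0.19 and 1.78 on the swapped arrays. Tumors 3 and 8 were the high ones, and so were the swapped arrays that resemble them, labelled tumors 2 and 4. The mean was 1.02 ± 0.96 (SD, n = 7; limma adjusted p = 0.0575), and without tumors 6 and 7 it was 1.18 (limma adjusted p = 0.033; 0.112 with the dye term).

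Wnt4, which acts downstream of progesterone in the mammary gland, showed the same pair of tumors. It was -0.11, 0.12, 2.65, 0.45, 0.43, -0.52, 0.26 and 2.56 on the first arrays and -0.03, 1.62, 0.07 and 1.92 on the swapped ones, which puts tumors 3 and 8 and their look-alike swapped arrays apart from all the rest. The mean was 0.76 ± 0.96 (SD, n = 8; limma adjusted p = 0.11), and without tumors 6 and 7 it was 1.06 (0.0414; 0.275 with the dye term).

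Wnt5b and Wnt5a, closely related ligands best known outside the β-catenin branch, were highest in tumor 3, at 3.59 and 2.60 on its first array and 2.29 and 2.15 on the swapped array labelled tumor 2. On the other first arrays Wnt5b lay between -0.33 and 1.12 and Wnt5a between -0.83 and 1.03. Their means over the tumors were 0.62 ± 0.72 and 0.45 ± 0.93 (SD, n = 8 each; limma adjusted p = 0.0934 and 0.303).

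Wnt2, a ligand of mesenchymal cells, went to both sides of the pool. It was 2.37 in tumor 3 and 1.51 in tumor 6, -1.33 in tumor 1 and -1.64 in tumor 8, and its mean was -0.05 ± 1.15 (SD, n = 8; limma adjusted p = 0.94). Wnt9a read 2.16 for tumor 3, while the other first arrays ran between -1.08 and 0.23. Wnt10a read 1.69 for tumor 3 and 1.99 for tumor 7, and the other 5 first arrays with a value ran between -0.12 and 0.25. The remaining ligands, Wnt1, Wnt6, Wnt7a, Wnt9b and Wnt10b, had means between 0.09 and 0.26 with limma adjusted p between 0.224 and 0.605. Their highest first-array values were 0.90 for Wnt7a in tumor 4, 0.83 for Wnt6 in tumor 7 and 0.77 for Wnt10b in tumor 8. Wnt10b rose well above background on 4 arrays for tumor RNA and 1 for pool RNA, so little of its level was measured. For Wnt10a these were 5 and 2 arrays, and for Wnt7a 8 and 4.

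All 10 Frizzled receptors could be tested, of which Fzd10 was called. Fzd10 was -0.02, 0.06, 1.86, 0.31, 0.00, 1.66, 1.04 and 0.70 on the first arrays and 0.00, 1.36, 0.05 and 0.71 on the swapped ones, so tumors 3, 6, 7 and 8 were above the pool and tumors 1, 2 and 5 at its level. The mean was 0.70 ± 0.55 (SD, n = 8; limma adjusted p = 0.0292), and 0.61 ± 0.23 in the dye-term fit (SE; limma adjusted p = 0.115). The probe stood well above background on 8 arrays for tumor RNA and on 1 for pool RNA. It thus passed the filter only through tumor RNA, the side where it was high, and its ratio rests on a pool level near background. Fzd10 was not among the members called where both channels had to be above background on every array. The second Fzd10 probe gave 0.02 ± 0.11 (SD, n = 7; limma adjusted p = 0.894 over all probes). The 8-tumor call of Fzd10 was lost when tumor 2, 3, 4, 7 or 8 was left out. Tumor 2 enters that fit at 0.71, its average with the swapped array of its label.

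Fzd7, a receptor found in basal mammary cells, was 0.57, 0.02, 0.21, 0.17, -0.44, -0.03 and 1.64 on first arrays (tumor 1 had no value) and 0.83, 0.25, 0.55 and 1.75 on the swapped arrays. On this probe tumor 8 and the swapped array labelled tumor 4 stood above all others. The mean was 0.48 ± 0.65 (SD, n = 8; limma adjusted p = 0.144), and 0.72 without tumors 6 and 7 (0.0333; 0.0764 with the dye term). A second Fzd7 probe had a mean of 0.44 ± 1.21 (SD, n = 8, limma adjusted p = 0.448 over all probes). It read 1.95 in tumor 8, but also 1.08, 1.18, 0.99 and 1.34 on the first arrays of tumors 1, 2, 4 and 5. In tumors 6 and 7 it read -1.55 and -1.17, and on the swapped array labelled tumor 4 it was 1.27.

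Fzd3 and Fzd4 had means of -0.37 ± 0.87 and -0.32 ± 0.50 (SD, n = 8 each; limma adjusted p = 0.372 and 0.21). Without tumors 6 and 7, where both were above the pool, they were -0.77 and -0.55 and were called (limma adjusted p = 0.0249 and 0.0122), but not with the dye term (0.0884 and 0.0859). A second Fzd3 probe read -2.47 in tumor 6, where the one used read 1.05, and over the 8 tumors it was called lower at -0.94 ± 0.75 (SD, n = 8; limma adjusted p = 0.0286 over all probes, and 0.0476 with the dye term).

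Fzd9 was the member furthest below the pool on any array, at -3.93 on the swapped array labelled tumor 2 and -2.51 on the first array of tumor 3, and between -1.02 and 1.16 elsewhere. Fzd1 lay below the pool on 7 of 8 first arrays (mean -0.72 ± 0.71, SD; limma adjusted p = 0.0503) and above or near it on the swapped arrays (mean 0.49 ± 0.92, SD, n = 4). Fzd2 was -2.51 and -1.48 in tumors 6 and 7, with the other first arrays between 0.18 and 0.74, while its second probe read 2.76 and 0.96 in tumors 6 and 7. Fzd5, Fzd6 and Fzd8 had means between -0.28 and -0.05 with adjusted p between 0.346 and 0.877.

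Lrp5, a co-receptor that joins the Wnt and Frizzled complex, had the smallest adjusted p of all members and the clearest dependence on dye. It was -1.37, -1.20, -1.81, -1.40, -1.23, -1.85, -1.39 and -1.06 on the first arrays, and 0.39, -0.74, 0.16 and 0.20 on the swapped arrays. The first arrays were at least 2-fold below the pool in all 8 tumors, and the values of the first and swapped arrays did not overlap. The mean was -1.05 ± 0.44 (SD, n = 8; limma adjusted p = 0.00305) with labelled pairs averaged, -1.41 ± 0.28 on the first arrays and 0.00 ± 0.51 on the swapped arrays (SD, n = 4). The dye-term fit gave -0.71 ± 0.18 (SE; limma adjusted p = 0.0319) with a dye coefficient of -0.71, as large as the ratio itself. That call was lost when tumor 4, 5, 6, 7 or 8 was left out (limma adjusted p up to 0.0926), while the 8-tumor call held whichever tumor was left out. Without tumors 6 and 7 it was -0.86 (0.00291; 0.0951 with the dye term). The 4 swapped arrays share 1 slide, so orientation and slide cannot be told apart. How many of all genes have first and swapped values that do not overlap was not counted. The absolute dye coefficient had a median of 0.188 over the members and 0.179 over all genes. Lrp5 has 1 probe (A_51_P364168, mm7 chr19:3479676-3479736, minus strand), shown by its first 30 bases because the result rests on it:
Lrp5 A_51_P364168: ggtttttaacaagtgagaaatgtgagcggt

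Lrp6, the related co-receptor, repeated this on a smaller scale. It was -0.79, -0.03, -0.51, -0.10, -0.43, -0.23, -0.88 and -0.42 on the first arrays and 0.18, 0.01, 0.60 and 0.21 on the swapped arrays, which again did not overlap, a separation not counted over all genes. On the first arrays alone it was called lower (-0.43 ± 0.30, SD, n = 8; limma adjusted p = 0.0338), where 5 members were called, 2 higher and 3 lower, beside 8.28% and 13.1% of all genes. Over the 8 tumors it was -0.27 (0.144) and in the dye-term fit -0.07 (0.785).

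**Figure D3:**
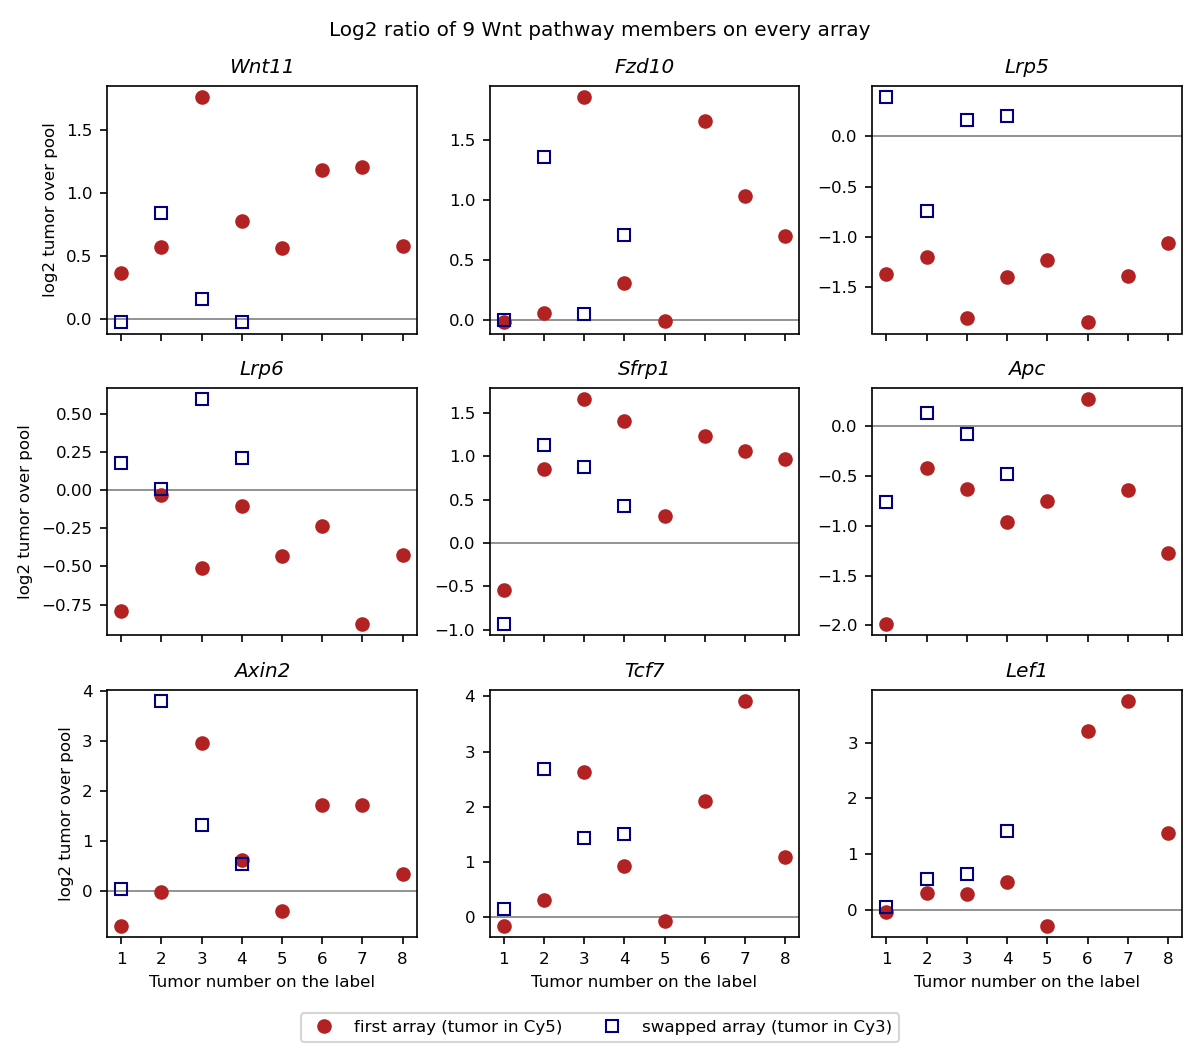
Log2 ratio of tumor over pool (vertical) of 9 members on every array, by the tumor number on the label, with first arrays as filled circles and swapped arrays as open squares; the vertical scales differ. For Lrp5 and Lrp6 the circles and squares separate, and for Tcf7 and Axin2 the square labelled tumor 2 (2.69 and 3.81) lies near the circle of tumor 3 (2.63 and 2.97).

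Of the 5 inhibitors that bind Wnt proteins, Sfrp1 was called. Sfrp1, a secreted Frizzled-related protein that is often silenced in human breast cancer, was -0.54, 0.85, 1.66, 1.41, 0.32, 1.24, 1.06 and 0.97 on the first arrays and -0.93, 1.13, 0.88 and 0.43 on the swapped ones. Tumor 1 was the only one below the pool, on both of its arrays. The mean was 0.75 ± 0.67 (SD, n = 8; limma adjusted p = 0.0403) and was above 0 in 7 of 8 tumors; in the dye-term fit it was 0.62 ± 0.20 (SE; limma adjusted p = 0.0683), and without tumor 1 the dye-term fit called it (0.82; 0.00879). In the 8-tumor fit it was called only without tumor 1 once any tumor was left out.

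The 2 Sfrp1 probes disagreed in tumors 6 and 7. The second probe read -2.75 and -3.52 there, where the first read 1.24 and 1.06, and lay between -0.78 and 2.78 on the other arrays, with a mean of 0.14 ± 2.15 (SD, n = 8; limma adjusted p = 0.906 over all probes). Both lie on mm7 chromosome 8, plus strand, the one used at 22232957-22233016 and the other at 22233645-22233704:
Sfrp1 A_51_P352296: cggaatcagtatagcgtggaaggagacagt
Sfrp1 A_52_P564706: gtgcattagtaattagaaatagtctaacct

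Sfrp2 and Sfrp4, family members of stromal cells, followed tumor 3. Sfrp2 was -1.30, -0.12, 3.80, -0.19, 0.48, 0.36 and -1.12 on first arrays (tumor 5 had no value), and -1.25, 3.14, -0.58 and -1.67 on the swapped arrays. Sfrp4 was 3.08 in tumor 3 and 2.60 on the swapped array labelled tumor 2, and between -1.85 and 1.5 elsewhere. Neither mean was called (0.09 ± 1.22, SD, n = 7, limma adjusted p = 0.891; 0.20 ± 1.17, SD, n = 8, limma adjusted p = 0.723). Sfrp5 stayed within 0.24 of the pool on every array.

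Wif1, a secreted protein that binds Wnts through its own domain, was 0.51, 1.86, 0.41, 0.58, -0.32, -0.28 and 1.05 on first arrays (tumor 1 had no value), and 0.01, 1.93, 0.28 and 1.16 on the swapped arrays. Tumors 3 and 8 were highest and tumors 6 and 7 the only ones below the pool. Its mean was 0.52 ± 0.63 (SD, n = 8; limma adjusted p = 0.109), and without tumors 6 and 7 it was 0.79 (0.0129; 0.0756 with the dye term). Of the Dickkopf genes, whose founding member blocks Lrp5 and Lrp6, Dkk2 and Dkk3 could be tested. Dkk2 was 2.27 and Dkk3 2.82 in tumor 3 (2.37 and 2.66 on the swapped array labelled tumor 2), and they lay between -1.31 and 0.56 and between -0.41 and 1.14 on the remaining arrays.

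Of the 4 genes of β-catenin and its destruction complex, Apc, a scaffold that holds β-catenin for degradation, was called lower. Apc was -1.99, -0.41, -0.63, -0.96, -0.75, 0.28, -0.64 and -1.27 on the first arrays and -0.76, 0.13, -0.08 and -0.48 on the swapped ones, so 7 of 8 tumors lay below the pool on first arrays and the swapped values were closer to it. The mean was -0.62 ± 0.55 (SD, n = 8; limma adjusted p = 0.0441), and the dye-term fit gave -0.35 ± 0.20 (SE; limma adjusted p = 0.291). The 4 other kept Apc probes had means between -0.17 and 0.11 (limma adjusted p between 0.475 and 0.92 over all probes), and with all kept probes averaged Apc was -0.18 (0.228). In the 8-tumor fit it was called only without tumor 6 once any tumor was left out.

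Ctnnb1 had probes called in opposite directions. The brightest probe had a mean of 0.32 ± 0.73 and was not called, the second 0.72 ± 0.36 and was called higher, and the third -1.12 ± 0.58 and was called lower (SD, n = 8 each; limma adjusted p = 0.375, 0.00847 and 0.00678 over all probes). In the dye-term fit they were 0.17, 0.93 and -1.07 (0.793, 0.0791 and 0.0289). The third probe was below the pool on all 12 arrays, between -2.47 and -0.17, and the second above it on 10 of 12. In tumor 6 the brightest read -1.26 and the second 1.35. The first bases of the 3 probes, all on mm7 chromosome 9, plus strand, are shown because their ratios go apart; the third lies upstream, at 120654491-120654550, and the others at 120657994-120658053 and 120658490-120658549:
Ctnnb1 A_51_P272046: gaaggagatgttcatgtgtggaagtttctc
Ctnnb1 A_52_P424585: ttctaagaaccgagtaatggtgtagaacac
Ctnnb1 A_52_P472397: aagggacatggagtgtaatgtactgttgtg
Without tumors 6 and 7 the brightest probe was called higher, at 0.48 (0.0394; 0.499 with the dye term). No single direction can be given for Ctnnb1 RNA from these probes, and protein was not measured.

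**Figure D4:**
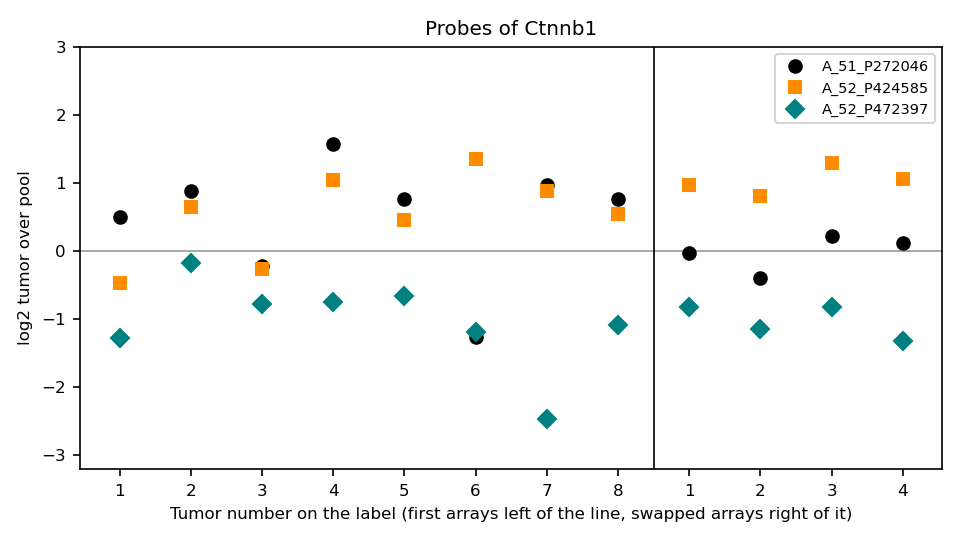
Log2 ratio of tumor over pool (vertical) of the 3 Ctnnb1 probes on the 8 first arrays (left of the line) and the 4 swapped arrays (right of it). The probe A_52_P472397 was below 0 on all 12 arrays, and the other 2 part most in tumor 6, at -1.26 and 1.35.

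Axin2, a scaffold of the complex and a widely used target of β-catenin signalling, was -0.69, -0.01, 2.97, 0.63, -0.40, 1.73, 1.72 and 0.35 on the first arrays and 0.04, 3.81, 1.33 and 0.55 on the swapped ones. Tumor 3 was highest on the first arrays, followed by tumors 6 and 7, and the array labelled tumor 2 was highest of the swapped ones. The mean was 0.97 ± 1.03 (SD, n = 8, limma adjusted p = 0.067) and 1.10 ± 0.37 in the dye-term fit (SE, limma adjusted p = 0.0796), so it did not pass the test. Without tumors 6 and 7 it was 0.71 (limma adjusted p = 0.190), and 0.80 with the dye term (0.274). Axin2 has 1 probe, which stood well above background on 9 arrays for tumor RNA and 7 for pool RNA. Axin1, the housekeeping form of the scaffold, was -2.42 and -2.82 in tumors 6 and 7, and between -0.15 and 0.25 on the other 9 arrays with a value.

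The 3 Tcf/Lef factors are the DNA-binding partners of β-catenin, and Tcf7 and Lef1 are also abundant in T cells. Tcf7 was -0.15, 0.31, 2.63, 0.93, -0.07, 2.10, 3.92 and 1.09 on the first arrays and 0.15, 2.69, 1.44 and 1.51 on the swapped ones. Tumors 1, 2 and 5 were at the pool's level and the other 5 above it, tumor 7 the most. The mean was 1.47 ± 1.28 (SD, n = 8; limma adjusted p = 0.0318), a 2.78-fold difference, and the dye-term fit gave 1.5 ± 0.38 (SE; limma adjusted p = 0.0333). Its first and swapped means were alike, at 1.35 and 1.45. Without tumors 6 and 7 it was 0.96 (0.0449; 0.0889 with the dye term), the 8-tumor call was lost when tumor 2, 3, 4, 6 or 8 was left out, and the dye-term call when tumor 3, 4, 6, 7 or 8 was (limma adjusted p up to 0.102).

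The second Tcf7 probe was also called higher over the 8 tumors, at 0.82 ± 0.74 (SD, n = 8; limma adjusted p = 0.0455 over all probes; 0.158 with the dye term). It read -0.42 in tumor 6 and 1.44 in tumor 7, where the one used read 2.10 and 3.92. Both lie on mm7 chromosome 11, minus strand, at 52209369-52209428 and 52210086-52210145:
Tcf7 A_52_P244702: ttttttcattctcgctgtagatagcctgaa
Tcf7 A_52_P244711: ttttgtttgctgtaggtcagatgggttgga

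Lef1 was -0.04, 0.30, 0.28, 0.51, -0.29, 3.21, 3.75 and 1.39 on the first arrays and 0.05, 0.54, 0.64 and 1.41 on the swapped ones. Tumors 6 and 7 stood far above the rest, and tumor 3, high for Tcf7 and Axin2, was near the pool. The mean was 1.24 ± 1.48 (SD, n = 8, limma adjusted p = 0.091). Without tumors 6 and 7 it was 0.49 (limma adjusted p = 0.129), and 0.43 with the dye term (0.189). Lef1 has 1 kept probe, so no second kept probe stands beside its values in tumors 6 and 7. Tcf7l2 was -0.52 ± 0.70 (SD, n = 8; limma adjusted p = 0.137), with tumor 3 (1.14) the only first array above the pool on the probe used. On the other kept Tcf7l2 probes the first array of tumor 8 was above the pool too, at 0.54, 0.72 and 0.29. On 1 of them tumors 2 and 5 were also above it, at 0.14 and 0.28. Of 13 T cell markers, the median log2 ratio was 3.17 on the first array of tumor 7 and 1.36 on that of tumor 3, and between 0.14 and 0.86 on the other first arrays. Over the 8 tumors 1 T cell marker was called higher, Lck, a kinase of the T cell receptor (1.51 ± 0.92, SD, n = 8; limma adjusted p = 0.00855; dye-term fit 1.36, 0.00807), and 1 lower, Cd3e, which had a value in 4 tumors (first-array value 1.18 in tumor 3, swapped mean -1.39; dye-term fit -0.11, 0.813), beside 6.59% and 10.6% of all genes. The part of T cells in the Tcf7 and Lef1 values was not tested.

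**Figure D5:**
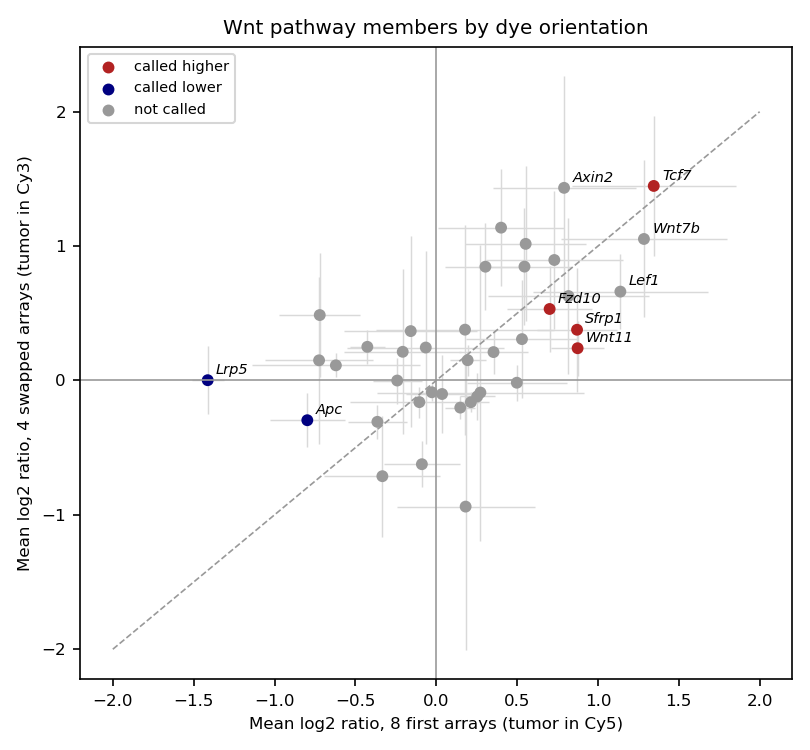
Mean log2 ratio of the 39 tested members on the 4 swapped arrays (vertical) against the 8 first arrays (horizontal), with bars of 1 standard error, the dashed line marking equal values, and colour marking the call over the 8 tumors. Tcf7 lies on the line at 1.35 and 1.45, and Lrp5 far off it at -1.41 and 0.00.

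Across the members, 24 of 39 (61.5%) had the same sign in the first-array and swapped-array means, and 56.9% of 20389 genes did. In the authors' deposited table of log2 values, averaged by labelled tumor, 9 members were called, 8 higher (Axin2, Fzd10, Sfrp1, Tcf7, Wnt5b, Wnt7a, Wnt7b and Wnt11) and 1 lower (Lrp5), beside 9.44% and 10.1% of all genes. Of these, Axin2 was 1.25 (0.0324), Wnt5b 0.70 (0.0421), Wnt7a 0.69 (0.0274) and Wnt7b 0.95 (0.0395; limma adjusted p for each).

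Other genes of the pathway were read from lists of named components. Each count below stands beside 6.59% of all genes called higher and 10.6% lower over the 8 tumors. With the dye term these shares were 3.51% and 4.49%. Of 7 tested R-spondins, their Lgr receptors and the ligases that remove Frizzled, 1 was called higher, Rspo1, a secreted protein that strengthens Wnt signalling, and none lower. Rspo1 ranged over 0.59 to 2.28 on first arrays and 0.34 to 2.29 on swapped ones, above the pool on all 12. Its mean was 1.26 ± 0.52 (SD, n = 8; limma adjusted p = 0.00271; dye-term fit 1.22, 0.0245). Of 5 other inhibitors tested, Frzb, a relative of the Sfrp genes, was called higher (0.61 ± 0.54, SD, n = 8, limma adjusted p = 0.0457) but not with the dye term (0.43, 0.344). The Frzb probe stood well above background on 5 of 12 arrays for tumor RNA and on 5 for pool RNA. None of 6 genes for Wnt secretion and alternative receptors was called by limma in either fit (1 had an unadjusted p under 0.05 over the 8 tumors and 0 with the dye term).

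Of 30 cytoplasmic and nuclear relay genes, 4 were called lower and none higher over the 8 tumors, beside 10.6% and 6.59% of all genes, and 2 were lower with the dye term, beside 4.49%. Amer1, a membrane-bound partner of Apc, was below the pool on all 12 arrays, between -2.60 and -0.55, with a mean of -1.47 ± 0.50 (SD, n = 8; limma adjusted p = 0.00118; dye-term fit -1.58, 0.00312). Chd8, a chromatin remodeller that binds β-catenin, was -0.75 ± 0.57 (SD, n = 8; limma adjusted p = 0.0245; dye-term fit -0.73, 0.0332), with tumors 6 and 7 lowest at -1.96 and -1.23. Tle1, a co-repressor that binds Tcf factors, was -0.69 ± 0.27 (0.00427; dye-term fit -0.58, 0.0536), and the fourth was its relative Tle4 (-0.47, 0.0154; dye-term fit -0.29, 0.36), with means of -0.67 on first arrays and 0.06 on swapped ones. The list's median was -0.10. Of 20 genes of planar polarity and the other branches, Nfatc2, a calcium-regulated transcription factor, was lower (-1.15 ± 0.47, SD, n = 8; limma adjusted p = 0.00277) and so was the kinase gene Camk2a (-0.48 ± 0.39; 0.0412), and neither passed with the dye term (0.108 and 0.224). For tumor RNA the Nfatc2 probe stood well above background on 4 of 12 arrays and the Camk2a probe on 3, against 12 and 10 for pool RNA. On the remaining arrays their tumor levels were near background.

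Of 34 tested genes known elsewhere as targets of β-catenin with Tcf or Lef, 3 were called higher and 3 lower over the 8 tumors, beside 6.59% and 10.6% of all genes, and 1 and 2 with the dye term, beside 3.51% and 4.49%. The list's median was 0.17. Tbx3, a T-box factor of the mammary line, was the furthest below the pool, at -2.20 ± 0.66 (SD, n = 8; limma adjusted p = 0.000645; dye-term fit -2.21, 0.00648). It read between -3.48 and -1.83 on 10 arrays, and 0.17 and -0.25 on the first array of tumor 3 and the swapped array labelled tumor 2. Tcf4, a helix-loop-helix factor that shares only its name with the Tcf/Lef family, was -1.61 ± 0.76 (0.00356; dye-term fit -1.51, 0.00422), again near the pool in tumor 3 at -0.09. Myc, a growth regulator, was 0.61 ± 0.31 (SD, n = 8; limma adjusted p = 0.00916; dye-term fit 0.63, 0.0164). Msx2 (-1.26), Msx1 (1.21) and Met (0.47) passed over the 8 tumors but not with the dye term (0.113, 0.259 and 0.0863); Msx1 was 1.61 on first arrays and -0.18 on swapped ones.

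Epithelial markers bear on the reading of a tumor against a pool. Of 8 tested luminal markers, Krt8 and Epcam were called higher and Esr1 lower over the 8 tumors, beside 6.59% and 10.6% of all genes. Krt8 was 1.40 on first arrays and -0.68 on swapped arrays, and Epcam 1.24 and -0.71. Neither passed with the dye term, nor did Esr1 (-0.88, limma adjusted p = 0.115). The dye-term fit called Cdh1 higher (0.70, limma adjusted p = 0.0081), beside 3.51% of all genes. Its first and swapped means were also apart, at 0.15 and 1.31. Over the 8 tumors Cdh1 was not called (0.43, limma adjusted p = 0.0883). Of 9 basal and myoepithelial markers, Krt5, Krt14 and Oxtr were called higher (means 1.29, 0.83 and 0.89), beside 6.59% of all genes, and none with the dye term, beside 3.51%. Tumor 3 was at 3.99, 3.67 and 2.64 on its first array. None of 8 adipocyte and 7 endothelial markers was called by limma (0 and 2 had an unadjusted p under 0.05). The luminal marker Pgr stood well above background on 2 arrays for tumor RNA and on none for pool RNA, and every other marker of the lists passed the filter.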

How the data were processed

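Total RNA of the tumors and of the pool was amplified, labelled and hybridised to two-colour Agilent arrays, per the labels' protocols. Per the file headers, spots were read with Agilent Feature Extraction 9.5.3.1 on a design with probe coordinates of build mm7. Mean foreground and median background intensity of each spot were deposited without normalization, with a log10 ratio of red over green that the authors' scanner software made from its processed intensity values, per the file headers. Other deposited values, flags of 0 or 1, mark spots well above background, saturated or outlying. The authors also deposited log2 values as a series table, with a normalization not given in the sources used here; their slope on the scanner log2 ratio was 0.758 to 0.797 on first arrays and -0.748 to -0.715 on swapped ones, which fits ratios already turned to tumor over pool, and column medians lay between -0.0715 and 0.137.

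Intensities were corrected by normexp (offset 50) and loess within arrays (limma 3.58.1 under R 4.3.3), where control spots had weight 0. Outlier spots were left out (0.47% to 13.7% of gene spots of an array) and saturated spots kept (at most 3). Log2 ratios were turned to tumor over pool, spots of a probe averaged, and arrays of a labelled tumor averaged. A probe was kept if 4 or more tumors had an array with one channel or the other well above background (30838 probes; 20434 genes, 20422 of them with a test), and a gene was read by its brightest kept probe. Means were tested against 0 with lmFit and eBayes, Benjamini-Hochberg adjusted. The dye-term fit used all 12 arrays with the tumor as a random block (within-tumor correlation -0.04 by labels and 0.93 by best match, where the match was itself chosen by correlation). Number of arrays limits the precision. The fits were tested on simulated data in which the tumor of every array was known. That test does not cover swapped arrays with doubtful labels or a match chosen by correlation. Figures used matplotlib 3.10.9.

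Members, lists and the alternatives were chosen with earlier results of these data known. Full values are given for members called over the 8 tumors or whose call changed with the dye term or on first arrays, and called list genes are named, at most 3 per direction and list; other members' values, probe comparisons and the fits without tumors 6 and 7 were chosen after seeing the data, as were the dye-term fit with best matches among 8 tumors, its repeats without single tumors and the fit of swapped arrays only. Probes whose accession points to Fzd3, Fzd5 and Lrp6 under other names (3) are outside the 72.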

Additional observations from a re-analysis of the deposited data

Results flagged for a closer look

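In 8 tumors with labelled arrays averaged, 1 of 39 members had a tumor whose gap to its neighbour was large against the whole range: Ctnnb1 in tumor 6, at -1.26, with the next lowest at 0.00. Over the first arrays alone, 4 of 39 did, all of them in tumor 3: Sfrp2 at 3.80 (next highest 0.48), Wnt5b at 3.59 (1.12), Wnt9a at 2.16 (0.23) and Fzd9 at -2.51 (next lowest -0.55). Chance picks about 1 in 20 such groups, and the share among all genes was not counted. On the first array of tumor 3, 13.6% of all tested genes lay at least 2-fold above the pool and 8.08% at least 2-fold below it. The flags are therefore not shown to be particular to the members. The swapped array labelled tumor 2 read 3.14, 2.29, 2.04 and -3.93 for these 4 members.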

How the results depend on the processing

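Over the whole array 3503 genes were called in the 8-tumor fit. The count was 1632 with the dye term and best match among 8 tumors, 1637 on swapped arrays only, 912 on the first arrays of tumors 1 to 4, 217 on those of tumors 5 to 8, and 1097 with the dye term without tumors 6 and 7; leaving out each tumor gave 1963 to 4540 in the 8-tumor fit and 353 to 2255 in the dye-term fit. Among the 39 tested members 6 were called in the 8-tumor fit. The count of members called was 3 with the dye term and best match among tumors 1 to 4, 2 with best match among 8 tumors, 2 with slide as a random block, 1 on the first arrays of tumors 1 to 4, 0 on those of tumors 5 to 8 (10 at an unadjusted p under 0.05), 0 on swapped arrays only (5 unadjusted), 11 without tumors 6 and 7, and 0 with the dye term without them; leaving out each tumor gave 2 to 10 in the 8-tumor fit and 0 to 4 in the dye-term fit. Over the pathway lists 14 genes were called in the 8-tumor fit. The count of list genes called was 6 with the dye term and best match among 8 tumors, 7 on swapped arrays only, 9 with both channels above background on every array, 3 and 5 on the first arrays of tumors 1 to 4 and 5 to 8, 23 without tumors 6 and 7, and 4 with the dye term without them; leaving out each tumor gave 11 to 18 in the 8-tumor fit and 3 to 10 in the dye-term fit. The one called member whose sign turned was Lrp5 on swapped arrays only (0.00203; limma adjusted p = 0.997); changes of sign of members that were not called were not counted. The cause of these differences was not tested. The pool is 1 control sample, the labels of 3 swapped arrays go against their best correlation, and dim probes of 8 members leave their ratios near background. The dye-term fit with the labelled tumor as a replicate block called 8 members, beside 4508 of all 20422 genes. With best match among tumors 1 to 4 the whole-array count was 2379, and with slide as a random block 2557.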
